A study of Mus musculus with 8 samples.

Results

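Between the annotated genes of the mouse genome lie intervals from which long RNAs are transcribed that do not code for protein. The array used here carries 4449 probes that are named only by a chromosome interval. Whether each of these intervals lies outside annotated genes was not checked. Each name gives a chromosome, a start and an end, followed by the letter F or R, and no gene. The 1727 interval probes described here (38.8%) were selected on their detection, because every WT array, every KO array or all 8 had the probe flagged by the scanner as well above background. They carry 1625 interval and letter names and lie in 1423 of the 3229 intervals on the array. Among all 56605 probes, 29069 passed the same filter.

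Long intergenic noncoding RNAs are usually transcribed by RNA polymerase II, and many are spliced and polyadenylated like messenger RNAs. They tend to be less abundant than messenger RNAs and to be more restricted to particular tissues and states. Some act on genes close to their own site of transcription, others act elsewhere in the nucleus or the cytoplasm, and for most no function is known.

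The groups were liver RNA of 4 *Agpat3* wild-type (WT) mice and 4 *Agpat3* knockout (KO) mice, all male, 10 weeks old and of C57BL/6 background, with 1 one-color array per mouse. *Agpat3* encodes an acyltransferase that attaches docosahexaenoic acid to a precursor of membrane phospholipids, and the KO was present in the whole animal. The study asked which liver transcripts change when such phospholipids are lacking. All coordinates are those of the probe names, in mm9, the build that the scanner output gives for the array, and no gene annotation of that build was used here.

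As a check of the labels, the brighter *Agpat3* probe gave log2 signals between 5.65 and 5.88 in WT and between -0.58 and 0.02 in KO, a log2 fold change of -6.12 (limma adjusted p = 4.46e-07). The hepatocyte list had 10 of 10 markers tested and none called. On the 8 lists for other cell types, 32 markers were tested and 1 was called, *Marco* of the Kupffer cell and macrophage list, with a log2 fold change of -1.22. The summed log2 level of that list ran from 6.47 to 7.18 in WT and from 6.23 to 6.96 in KO, and its part in the results below was not tested. In bulk liver, fewer cells of a type and less RNA per cell cannot be told apart. WT arrays lay in row 1 of the slide and KO arrays in row 2, so row and genotype cannot be told apart either.

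Interval probes were detected less often than the rest of the array. Of the 4449, 2053 (46.1%) were well above background on no array and 1564 (35.2%) on all 8, against 37% and 49.8% of the other probes. The share kept was 38.8% for interval probes, 31% for the 2477 probes of RefSeq noncoding transcripts and 64.5% for the 29638 probes of RefSeq messenger RNAs. These shares describe probes chosen by the same flags and carry no test.

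The number of interval probes well above background was 1884, 2035, 1915 and 1825 on the WT arrays. On the KO arrays it was 1827, 1830, 1863 and 1910. The WT 2 array stood highest and the WT 4 array lowest, and the groups overlapped. The means were 1914.8 ± 88.4 in WT and 1857.5 ± 38.6 in KO (SD, n = 4 mice per genotype). The difference of -57.25 did not pass an exact two-sided permutation test over the 70 assignments of the mice (p = 0.314). With 1 array left out it lay between -87.2 (without WT 4) and -17.2 (without WT 2), and with the scanner's flag for a positive and significant signal it was -99.8. The other probes were counted between 28061 and 29853 per array, also with overlap (exact permutation p = 0.686). Interval probes made up 6.23% of the probes detected in WT and 6.12% in KO (exact permutation p = 0.114).

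**Figure D1:**
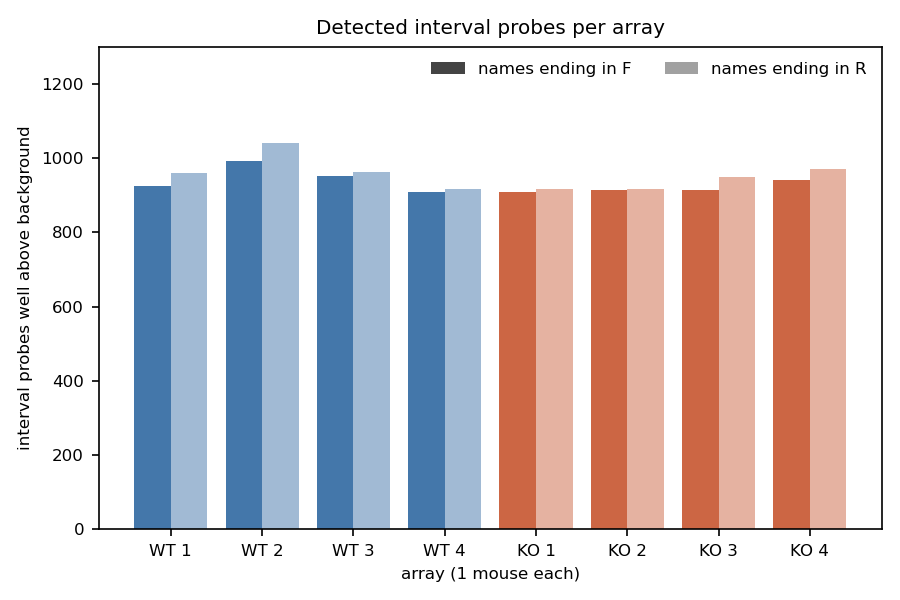
Number of interval probes well above background (y axis) on each of the 8 arrays (x axis, 1 mouse each), with names ending in F as full bars and names ending in R as pale bars. Blue is WT and red is KO. WT 2 stands highest, with 993 and 1042 probes, and the other 7 arrays lie between 909 and 970.

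Detection was similar for both letters. Members made up 38.2% of the 2227 F probes and 39.4% of the 2222 R probes. Probes of both letters were present for 832 intervals. In 202 of these both letters had a member, in 169 only F, in 198 only R, and in 263 neither. The letter is given here as the file has it, and what it stands for was not taken from any source.

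Intervals with a member were longer than those without. Their median length was 10.8 kb (quartiles 1.8 and 25.9 kb) in 1423 intervals, against 3.79 kb (quartiles 0.598 and 17.6 kb) in the 1806 intervals without a member, as a description with no test. The intervals on the array ran from 62 to 538251 bases. Most intervals with a member, 1165, had 1, a further 220 had 2, and 38 had 3 to 5. Members lay on all 20 chromosomes that have interval probes. The share of a chromosome's interval probes that were members was lowest on the X chromosome, with 25.9% of 174 probes, and highest on chromosome 14, with 52.7% of 186. Among the autosomes the lowest share was 31.7%, on chromosome 3.

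All levels below are log2 processed signals from which the 75th percentile of the array was subtracted, so that a value of 0 is that percentile. Levels of different probes are not compared, since probes differ in how well they hybridize. The members with the highest mean signal are given as a description. The probe of chr1:193875525-193978800 with the letter R gave 9.85, 9.85, 9.87 and 10.07 in WT and 9.76, 9.58, 9.16 and 9.59 in KO. Its groups did not overlap, but its log2 fold change of -0.39 was not called (limma adjusted p = 0.26). In all 8 mice, the R probe of chr17:17481706-17482457 lay between 8.48 and 8.67. Values of the F probe of chr14:78924115-78938125 lay between 8.40 and 8.50 in WT and between 8.33 and 8.41 in KO. An F probe of chr14:22267795-22319045 and the R probe of chr12:73838608-73862621 had log2 fold changes of -0.12 and -0.11, and neither was called.

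At the other end, the 3 dimmest members came in through their WT arrays. The dimmest, the R probe of chr11:59206727-59207172, gave -3.78, -3.86, -3.62 and -3.90 in WT and -4.44, -5.18, -4.63 and -4.65 in KO, where it was flagged on no array. Next, the R probe of chr17:56687541-56694631 lay between -4.32 and -3.99 in WT and between -4.74 and -3.77 in KO. That of chr5:149751979-149808240, also R, lay between -4.14 and -3.25 in WT and between -5.93 and -3.66 in KO. Each of these last 2 was flagged on 1 KO array.

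The brightest interval probes that the rule left out were not uniformly dim, but varied from mouse to mouse. The R probe of chr16:23992037-24001037 gave -2.11, -0.70, -1.10 and -4.21 in WT and -3.46, -2.67, -1.29 and -5.69 in KO. A similar course was seen for the F probe of chr16:23989160-23992539, an interval whose end overlaps the start of the former, which gave -2.52, -1.26, -1.54 and -4.47 in WT and -3.12, -3.08, -1.80 and -4.09 in KO. Both were highest in WT 2 and WT 3 and, among the KO mice, in KO 3, and both were lowest among the WT mice in WT 4. The last, the R probe of chr5:143201822-143204033, had -1.64 in KO 4 and values between -3.93 and -2.98 in the other mice.

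Most members varied little within a genotype. The median SD over 4 mice was 0.174 in WT and 0.181 in KO, and the 90th percentile was 0.417 and 0.431. An SD above 0.5 was seen for 101 members in WT and 113 in KO, of which 75 and 78 were well above background on all 8 arrays. The log2 signals of the members gave correlations of 0.982 to 0.992 for arrays of 2 WT mice, 0.981 to 0.987 for 2 KO mice and 0.975 to 0.986 for a mouse of each genotype. These values are over probes, which are not replicates. For 5 interval probes the array holds 10 spots each, and the SD among spots of 1 array was between 0.0223 and 0.104. The probes of chr6:116123643-116124550 with 10 spots had log2 fold changes of 0.08 and 0.08.

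Genotype was next compared by limma over all 29069 probes that passed, with a call at a fold change over 1.5 and a Benjamini-Hochberg adjusted p under 0.2. Of the 1727 members, 15 were called higher in KO (0.869%) and 24 lower (1.39%). Over all tested probes the called shares were 0.939% higher and 0.726% lower. In both directions together, 39 members (2.26%) were called, against 1.67% of all tested probes, 1.57% of messenger RNA probes and 2.99% of RefSeq noncoding probes. Every KO value lay outside the WT range for 187 members (10.8%), against 8.86% of all tested probes. The filter favors a difference in members kept through 1 genotype alone, and 113 members came in through WT alone and 50 through KO alone, so these counts are a description. Among the 1564 members on all 8 arrays, 22 were called (1.41%), 6 higher and 16 lower, against 1.24% of all probes on all 8 arrays. P-values reflect the spread between these mice.

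The calls lay close to the threshold. At an adjusted p under 0.05 there were 3 higher and 2 lower calls, against 117 calls over all 29069 tested probes. With no minimum fold change there were 32 and 71, against 1202. With normexp background correction 5 members were called higher and 5 lower, against 245 calls over all tested probes. With 1 array left out the number of higher calls was between 8 (without WT 3) and 21 (without WT 4). It was also reduced to 9 without KO 2. The number of lower calls fell from 24 to 15 without WT 1, 13 without WT 2, 11 without KO 2 and 15 without KO 3. Of the 39 called members, 13 were called in each of the 8 fits with 1 array left out, 7 of them higher and 6 lower. The 13 include the F probes of chr10:92547995-92556102, chr12:89519675-89533975, chrX:93154123-93164481 and chr6:149221500-149237350 and the R probe of chr11:59206727-59207172. These passed the filter only through the genotype in which they were higher. All 39 had the same sign with normexp, and 10 were called.

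**Figure D2:**
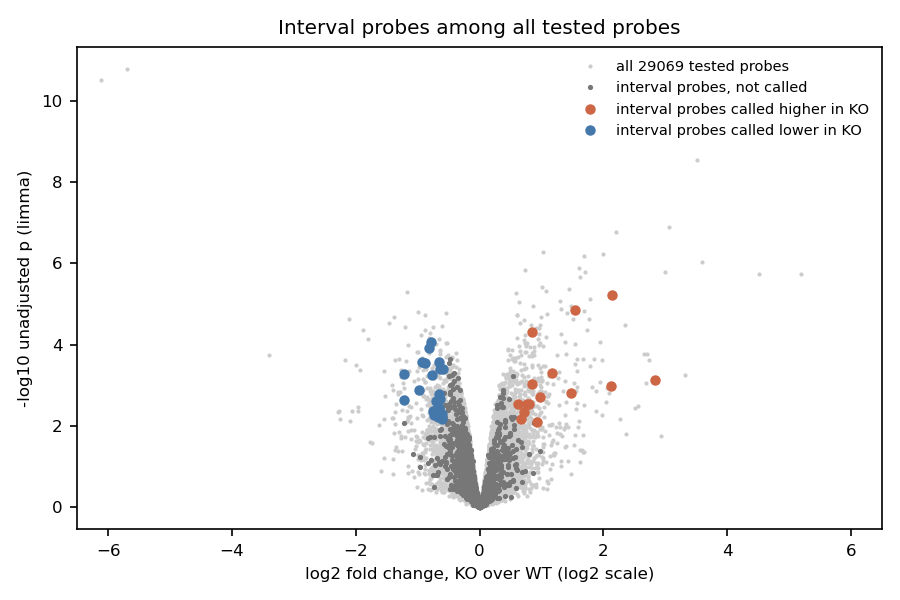
Log2 fold change of KO over WT (x axis) against -log10 of the unadjusted p of limma (y axis) for all 29069 tested probes in light gray and for the 1727 interval probes in dark gray, red (15 called higher in KO) and blue (24 called lower). The interval probes reach from -1.23 to 2.83 on the x axis, and the 2 light gray points at the far left are the *Agpat3* probes.

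Across all members the log2 fold changes were small. Their median was -0.06, with quartiles of -0.18 and 0.07, against a median of -0.03 over all tested probes. A positive sign was found for 652 members (37.8%), against 43.7% of all tested probes, and 95.7% of the members lay within 1.5-fold. On all 8 arrays the medians were -0.05 for members and -0.02 for all probes. With no filter on dim probes the median of the interval probes was 0.02 and that of all probes was 0.03, so the sign of both turned on the filter. The median standard error was 0.133 for members and 0.116 for all tested probes, and it was 0.126 for the members on all 8 arrays and 0.214 for the rest. The members measured most tightly and not called were the F probes of chr6:116092274-116144199, chr7:6210340-6229115 and chr14:78924115-78938125, with log2 fold changes of -0.12, -0.15 and -0.10 and standard errors between 0.0561 and 0.0593.

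Of the 15 members called higher, 6 were well above background on all 8 arrays and 9 on only some or none of the WT arrays. Among the 6, the F probe of chr1:59449275-59474025 (A_30_P01018486) had the largest change. It gave -3.77, -2.88, -3.92 and -3.57 in WT and -1.27, -1.37, -1.39 and -1.59 in KO. All KO values were above all WT values, and the KO mice differed among themselves by less than the WT mice did. The log2 fold change was 2.13 (SE 0.211, limma adjusted p = 0.0075), which is 4.39-fold. With 1 array left out it was between 2.01 and 2.35 and always called. Its WT values lay near the lower end of the detected range, and with normexp the log2 fold change was 1.01.

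The F probe of chr2:119697845-119719245 (A_30_P01021461) gave -0.88, -0.71, -0.83 and -0.77 in WT and 1.09, 0.99, 0.55 and 0.31 in KO. Here the WT mice lay close together and the KO mice were spread, with no overlap. Its log2 fold change was 1.53 (SE 0.169, limma adjusted p = 0.0133), or 2.89-fold, and 1.23 with normexp. Also on all 8 arrays, the R probe of chr8:126268510-126290810 (A_30_P01022780) gave -1.48, -1.04, -1.91 and -2.13 in WT and -0.39, -0.48, -0.48 and -0.52 in KO. The 4 KO mice lay within a narrow band above the WT mice, and the log2 fold change was 1.17 (SE 0.213, limma adjusted p = 0.0733).

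The highest signals among the 15 were those of an F probe of chr19:5771425-5848475 (A_30_P01020769), an interval of 77.05 kb. It gave 2.26, 2.28, 2.21 and 2.59 in WT and 3.05, 3.13, 3.16 and 3.40 in KO. The groups were apart by more than the range within either, with a log2 fold change of 0.85 (SE 0.112, limma adjusted p = 0.025) and 0.79 with normexp. These last 3 probes and that of chr1:59449275-59474025 were called in every fit with 1 array left out and with normexp. A second F probe of the chr19 interval (A_30_P01020677) gave 1.14, 0.88, 0.91 and 0.27 in WT and lay between 0.61 and 0.93 in KO. Its groups overlapped, and its log2 fold change was -0.08 (limma adjusted p = 0.88). The difference between these 2 probes was not tested.

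The remaining higher calls on all 8 arrays were weaker. The R probe of chr1:138499609-138502045 (A_30_P01030078) lay between -3.21 and -2.93 in WT and between -2.65 and -1.72 in KO, with a log2 fold change of 0.79. Its call was lost without WT 2, WT 3 or KO 1, where the adjusted p reached 0.303. On the same arrays, the R probe of chr14:30758342-30759669 (A_30_P01024198) gave -0.06, -0.62, -0.32 and -0.06 in WT and 0.29, 0.32, 0.64 and 0.20 in KO. It did not overlap between genotypes, but its log2 fold change of 0.63 was called in only 3 of the 8 fits with 1 array left out.

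The other 9 higher calls were selected through their KO arrays alone. The F probe of chr10:92547995-92556102 (A_30_P01030169) had a fitted log2 fold change that rests in part on a WT value not above background. It gave -2.57, -2.33, -4.74 and -2.82 in WT, flagged on 3 arrays, and -1.04, 0.54, -0.23 and -0.42 in KO. WT 3 was the lowest by far, and no WT mouse reached the KO range. The log2 fold change was 2.83 (SE 0.547, limma adjusted p = 0.0837). It was between 2.29 and 3.09 with 1 array left out, always called, and 1.66 with normexp, also called.

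For 2 members the detection itself differed completely, with all 4 KO arrays flagged and no WT array. The F probe of chrX:93154123-93164481 (A_30_P01022007) gave -6.52, -4.57, -4.63 and -4.76 in WT and -2.83, -3.28, -3.33 and -2.55 in KO. Likewise, the R probe of chr8:35652473-35703370 (A_30_P01032805) gave -3.97, -5.41, -3.98 and -3.89 in WT and -2.65, -3.00, -2.87 and -2.80 in KO. Because no WT value was flagged as well above background, the KO level was set against a WT floor. A WT value below the dimmest signal flagged as well above background on its array was raised to that signal. By this bound the first was at least 2.44-fold higher in KO. The second was 2.40-fold higher by the floor, with some of its WT values above the floor. The spread between mice is not part of the bound. The limma adjusted p of 0.0934 and 0.11 behind their calls came from the measured WT values, which were not above background, and both probes were selected through their KO arrays, so these are a description. The call of the second was lost without WT 3, KO 1 or KO 2. With normexp their log2 fold changes were 0.56 and 0.48 and neither was called.

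The other 6 were flagged on 2 or 3 WT arrays and had log2 fold changes between 0.67 and 0.97. The F probe of chr12:89519675-89533975 (A_30_P01031044) gave -4.20, -3.99, -3.77 and -4.28 in WT and -3.14, -3.61, -2.89 and -3.25 in KO, without overlap, and was called in all 8 fits with 1 array left out. Another, the R probe of chr14:105497388-105511063 (A_30_P01021933), rose by 0.97 and did not overlap, and its call was lost without KO 1, KO 2 or KO 3. The R probes of chr14:21029450-21049451, chr13:60508775-60534625, chr4:88745770-88774130 and chr15:102926581-102932542 had log2 fold changes of 0.93, 0.76, 0.71 and 0.67. Of these 4, only that of chr13 was free of overlap between genotypes, and each was called in at most 2 of the 8 fits. None of the 6 was called with normexp, where their log2 fold changes lay between 0.22 and 0.35.

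**Figure D3:**
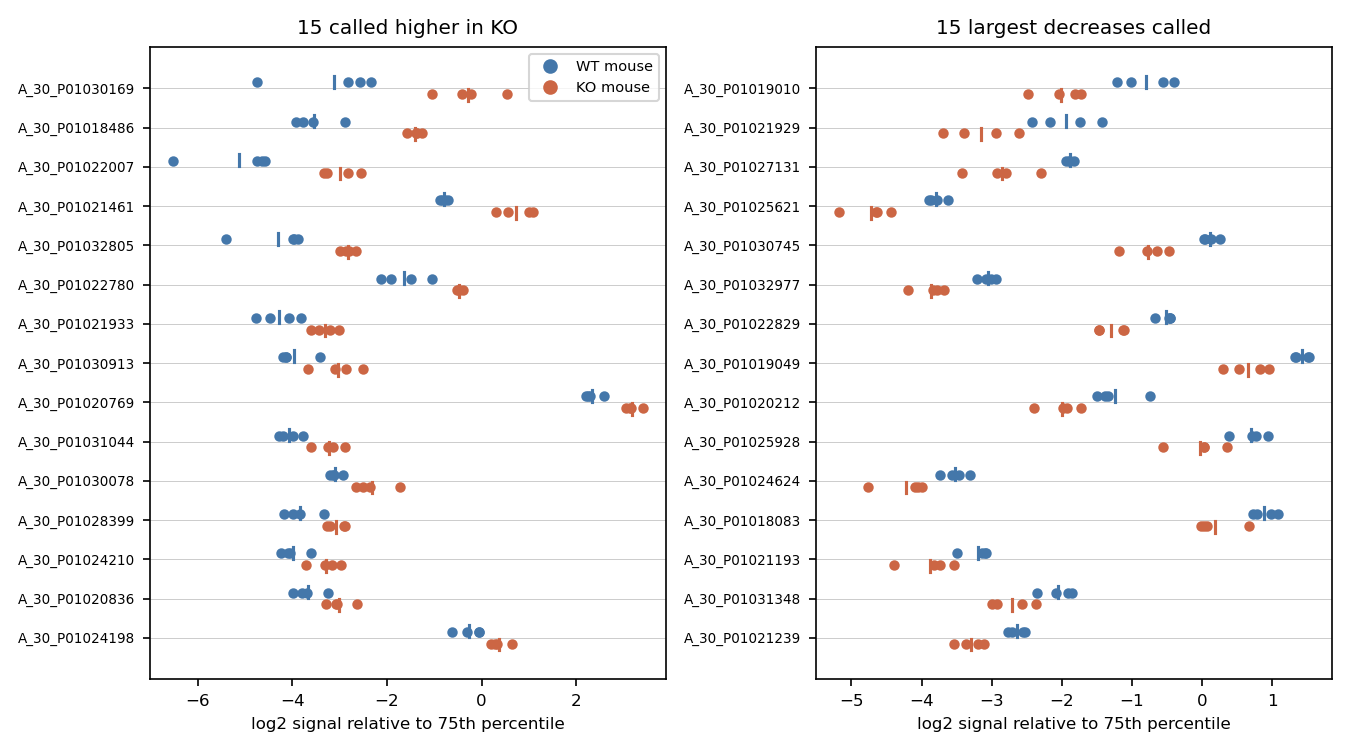
Log2 signal less the array's 75th percentile (x axis) in each WT mouse (blue) and KO mouse (red) for the 15 interval probes called higher in KO (left) and the 15 with the largest decreases among those called lower (right), by probe name. Points are mice and vertical ticks are means of 4 mice. On the left, A_30_P01018486, A_30_P01021461, A_30_P01022780 and A_30_P01020769 are apart between the genotypes and were called in every fit with 1 array left out and with normexp.

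Called decreases reached -1.22, against 2.83 for called increases. The largest called decrease was that of the R probe of chr11:96111499-96126224 (A_30_P01019010), which gave -0.40, -1.01, -1.22 and -0.55 in WT and -1.73, -1.81, -2.48 and -2.04 in KO. No KO mouse reached the WT range. The log2 fold change was -1.22 (SE 0.223, limma adjusted p = 0.0737), and it lay between -1.36 and -1.07 with 1 array left out. Its neighbor of the letter F in the same interval (A_30_P01030699) lay between -1.49 and -1.32 in WT and between -1.69 and -1.48 in KO, with a log2 fold change of -0.17 that was not called.

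The F probe of chr9:118291593-118324230 (A_30_P01021929) had nearly the same change. It gave -1.43, -2.17, -2.43 and -1.74 in WT and -2.61, -2.94, -3.69 and -3.39 in KO, and its log2 fold change was -1.22 (SE 0.282, limma adjusted p = 0.127). Its mice were more spread within each genotype. The call was lost without WT 1, WT 2, KO 2, KO 3 or KO 4, where the adjusted p rose to at most 0.228, and with normexp. The R probe of that interval had a log2 fold change of 0.08.

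Next came 3 decreases on all 8 arrays that were called in every fit with 1 array left out. The F probe of chr19:12084892-12085332 (A_30_P01030745), an interval of only 0.441 kb, gave 0.13, 0.02, 0.04 and 0.25 in WT and -0.64, -0.79, -1.19 and -0.47 in KO. Beside it, the R probe of chr10:66559716-66647841 (A_30_P01019049), the longest interval among those called at 88.1 kb, gave 1.52, 1.34, 1.32 and 1.51 in WT and 0.82, 0.53, 0.30 and 0.95 in KO. In both the WT mice lay close together, KO 3 was the lowest, and the groups did not overlap. Their log2 fold changes were -0.88 (limma adjusted p = 0.0552) and -0.77 (adjusted p = 0.0754), and both were also called with normexp. Last of these, the R probe of chr1:78591605-78606083 (A_30_P01022829) gave -0.45, -0.67, -0.48 and -0.46 in WT and -1.13, -1.12, -1.48 and -1.47 in KO. It had a log2 fold change of -0.78 (SE 0.111, limma adjusted p = 0.0335) and with normexp had an adjusted p of 0.0223 but a log2 fold change of -0.54, under the fold required.

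Other decreases were read on dim KO signal. One, the F probe of chr6:149221500-149237350 (A_30_P01032977), flagged on 2 KO arrays, gave -3.09, -3.01, -3.21 and -2.93 in WT and -3.78, -4.19, -3.68 and -3.84 in KO. The groups were apart, with a log2 fold change of -0.81 (limma adjusted p = 0.0376) that was called in every fit with 1 array left out. This probe was selected through its WT arrays alone, so these values are a description. With normexp its log2 fold change was -0.26 and it was not called. The dimmest member, the R probe of chr11:59206727-59207172, was flagged on all WT arrays and no KO array. It was at least 1.28-fold higher in WT by the bound described above. Its limma adjusted p of 0.0525 came from KO values that were not above background, in a probe selected through its WT arrays, and its log2 fold change with normexp was -0.10.

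In all, 5 members were flagged on every WT array and on no KO array. Besides that of chr11:59206727-59207172, the F probe of chr9:121207045-121269020 was called and was 1.497-fold higher in WT by the floor, with some KO values above the floor. Its call was lost without WT 1, WT 3, KO 2, KO 3 or KO 4, where the adjusted p reached 0.247. The R probes of chr1:85300475-85331475, chrX:151738814-151740969 and chr2:129416848-129417413 were not called. For these 3 the WT level was 1.28-fold, 1.33-fold and 1.23-fold above the KO level by the floor, with adjusted p of 0.276, 0.235 and 0.255 from limma. Some of their KO values lay above the floor, so these are estimates and not least differences. Only that on the X chromosome was free of overlap between genotypes.

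The R probe of chr15:12119755-12127230 (A_30_P01027131) gave -1.82, -1.88, -1.89 and -1.94 in WT and -2.30, -2.92, -3.42 and -2.80 in KO. The WT mice were almost level and the KO mice lay below them, with a log2 fold change of -0.98 (SE 0.205, limma adjusted p = 0.104). The call was lost without WT 2, WT 3 or KO 2 and with normexp. A log2 fold change of -0.66 (limma adjusted p = 0.0532) was found for the R probe of chr9:24617562-24625262 (A_30_P01021239). Its call was lost only without KO 3 among the fits with 1 array left out.

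The F probes of chr2:52241435-52245307 and chr1:183951156-183986156 had log2 fold changes of -0.73 and -0.70 and were called with normexp, but in only 2 of the 8 fits with 1 array left out. The R probes of chr17:15357376-15385701, chr12:110002978-110003360 and chr3:51804655-51805883 and the F probe of chr5:111565658-111566257 had log2 fold changes of -0.76, -0.70, -0.66 and -0.67. Each of these 4 was called in at most 2 of the 8 fits and not with normexp. The probe on chr12 was flagged on 2 KO arrays and that on chr5 on 3. Both were selected through their WT arrays alone, so their values are a description. The other 9 lower calls had log2 fold changes between -0.66 and -0.59. Among them, the F probes of chr8:122963590-122964126, chr6:90915489-90940052 and chr9:121207045-121269020 and the R probe of chr2:151992806-152025456 were not flagged on every KO array. These were selected through their WT arrays alone, so their values are a description. The 9 also include both R probes of chr13:41337973-41379821, with -0.63 (limma adjusted p = 0.0653) and -0.59 (adjusted p = 0.065). The first gave -2.06, -2.29, -2.56 and -2.20 in WT and -2.82, -3.00, -2.99 and -2.84 in KO. The second gave -0.96, -1.15, -1.06 and -1.02 in WT and -1.74, -1.84, -1.58 and -1.40 in KO. Neither overlapped between genotypes. The call of the first was lost without WT 1 and that of the second without WT 1, KO 1 or KO 2.

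For values with 4 mice against 4, the smallest two-sided p of an exact permutation test is 0.0286, reached where the groups do not overlap. This was so for 35 of the 39 called members. The calls were made on these same values, so this adds no support to them. Whether called or not, 10.8% of members and 8.86% of all tested probes did not overlap.

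Called members were spread over the genome. They lay on 17 chromosomes, with at most 4 on any, and none among the 72, 61 and 63 members on chromosomes 7, 16 and 18. All 3 among the 98 members on chromosome 14 were higher. All 3 among the 84 on chromosome 11 and all 3 among the 65 on chromosome 9 were lower. Called were 2.26% of all members, 24 of the 39 lower, and 1.67% of all tested probes. Counts this small per chromosome are a description with no test. No 2 intervals with a called member lay within 1 Mb of each other. F probes made up 6 of the higher and 10 of the lower calls, and R probes 9 and 14. The 38 intervals had a median length of 14.6 kb, from 0.383 to 88.1 kb.

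Where 1 interval held several members, pairs of the same letter and pairs of opposite letters were set side by side. Over 114 pairs of member probes with the same interval and letter, the log2 fold changes had the same sign in 78 (68.4%) and correlated with r = 0.381. Over 246 pairs of an F and an R probe they had the same sign in 136 (55.3%), with r = 0.0305. Deviations of the mice from their genotype mean had a median correlation of 0.496 over the pairs of the same letter and 0.107 over the pairs of opposite letters. With both probes well above background on all 8 arrays the shares of same sign were 70.6% of 102 pairs and 54.8% of 208. These pairs share their arrays, and a probe can stand in several pairs, so they carry no test.

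**Figure D4:**
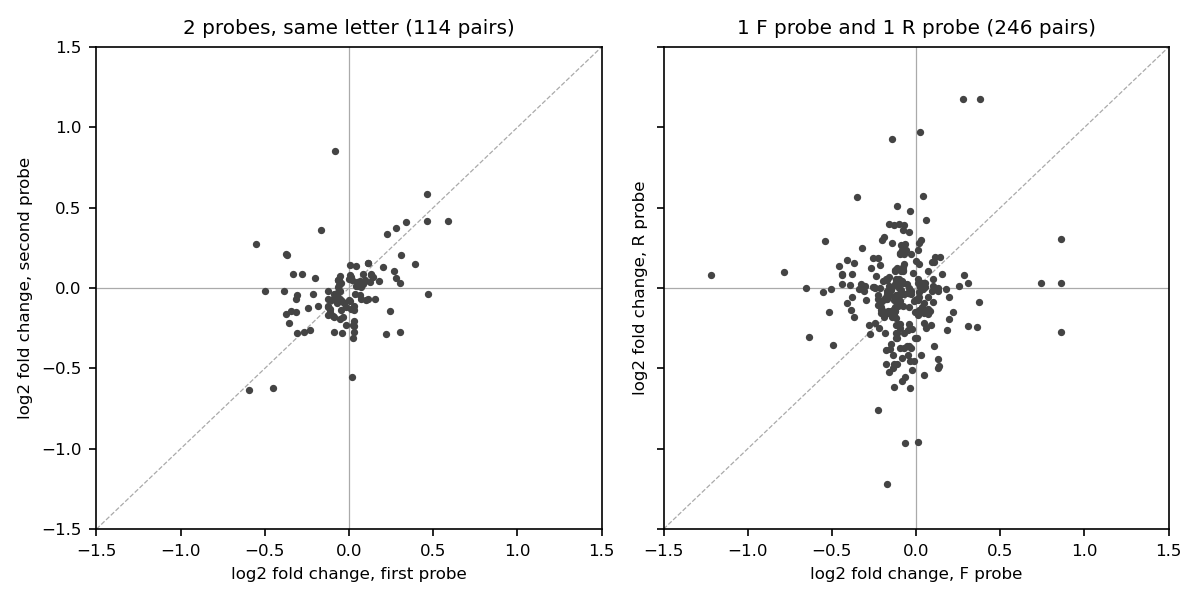
Log2 fold changes of KO over WT of 2 member probes of 1 interval, for the 114 pairs with the same letter (left, first probe on the x axis and second on the y axis) and the 246 pairs of an F probe (x axis) and an R probe (y axis, right). Each point is a pair, and the dashed line marks equal values. Points on the left lie nearer the line, with a median difference of 0.102 against 0.213 on the right.

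Of the called members, 12 shared their interval with another member. In 10 pairs a called member stood beside a member of the other letter, and in none were both called. Only 2.26% of all members and 1.67% of all tested probes were called, so 10 pairs are too few to compare the letters. In chr8:126268510-126290810, where the R probe rose by 1.17, the 2 F probes had log2 fold changes of 0.28 and 0.38. Neither F probe was called, and in each the KO values lay above all WT values. In chr14:21029450-21049451 the F probe had a log2 fold change of -0.15 and in chr14:105497388-105511063 one of 0.03, beside called increases of the R probes.

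Intervals near each other were taken as the mean of their members. The log2 fold changes had the same sign in 57.2% of 325 pairs of overlapping intervals, in 68% of 103 pairs up to 10 kb apart, in 58.3% of 290 pairs between 10 and 100 kb apart and in 56.6% of 1151 pairs up to 1 Mb apart. The correlations were 0.0451, 0.157, 0.024 and 0.00291. Most members have a negative sign and all pairs share the arrays, so these shares are a description and their differences were not tested.

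For the intervals with the most members, the log2 fold changes of their probes are given side by side. In chr14:22267795-22319045, 5 members were measured, 2 of the letter F and 3 of the letter R. Log2 fold changes lay between -0.31 and -0.04, all negative and none called. In chr8:91569369-91594119, the 3 F probes had log2 fold changes of -0.07, -0.03 and -0.09, and the 2 R probes -0.37 and 0.21. The first R probe gave -0.40, -0.58, -0.52 and -0.41 in WT and -0.87, -0.95, -0.85 and -0.73 in KO, without overlap. Its adjusted p was 0.0958 from limma, but its change was under 1.5-fold and so was not called. In chr17:46972160-46997919, the first by name of 4 intervals with 4 members, the 3 F probes had log2 fold changes of -0.05, 0.03 and -0.14, while the R probe gave -0.29, -0.04, -0.13 and -0.08 in WT and -0.58, -0.54, -0.63 and -0.48 in KO. That change of -0.42 (limma adjusted p = 0.0733) was also under the fold required.

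The calls were fewer when normexp with an offset of 50 was run on the median spot signal in place of the processed signal. That setting changes both the input signal and the background correction, and their parts were not told apart. Members called on all 8 arrays were kept in 9 of 22 cases, and of the 17 called members that were not on all 8 arrays, 1 was kept.

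**Figure D5:**
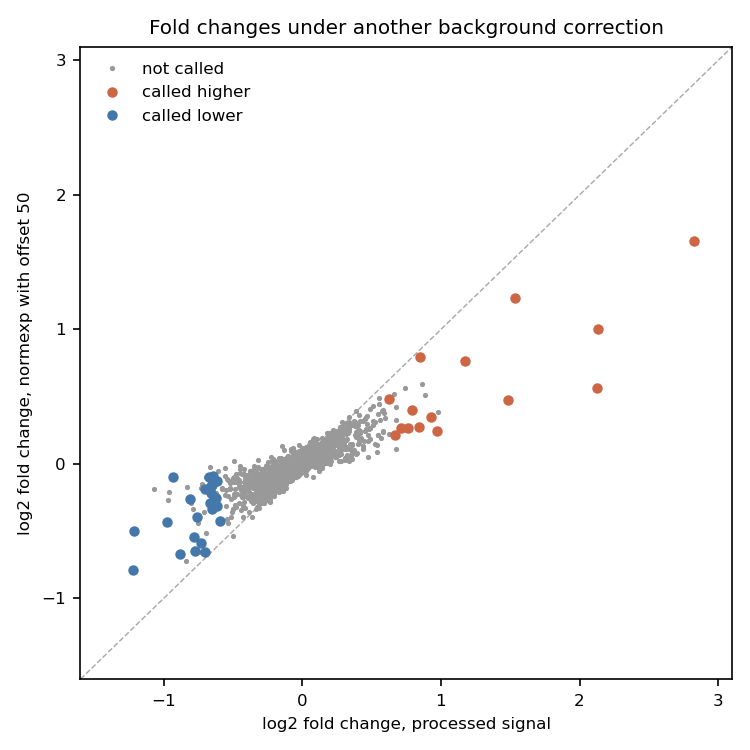
Log2 fold change of KO over WT of the 1727 interval probes from the processed signal (x axis) and from the median spot signal after normexp with an offset of 50 (y axis). Red and blue points are the members called higher and lower on the x axis, and the dashed line marks equal values. All 39 called members keep their sign, and most lie closer to 0 on the y axis.

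For comparison with long noncoding RNAs that carry a gene name, 34 known genes of this kind were looked up, not all of them intergenic. Probes were found for 28, of which 22 were tested, and by their brightest probe none was called higher and 3 were called lower, where 0.939% and 0.726% of all tested probes were called. They were *Meg3*, a maternally expressed noncoding RNA of the imprinted Dlk1-Dio3 region, with a log2 fold change of -2.11 (limma adjusted p = 0.0162). *Rian*, from the same region, was the second, and its probe was flagged on every WT array and on no KO array. By the bound described above it was at least 2.11-fold higher in WT. Its limma adjusted p of 0.0152 came from KO values that were not above background, in a probe selected through its WT arrays. *Snhg1*, a host gene of small nucleolar RNAs, was the third and had a log2 fold change of -0.65 (adjusted p = 0.101). *Neat1*, which organizes nuclear paraspeckles, had log2 fold changes of 0.15 and 0.14 and was not called, and neither was *Tug1* at 0.05. The list was chosen with earlier results of these data known, and *Meg3* and *Rian* share a region, so these counts are a description. No interval was assigned to any of these genes, and whether an interval holds one of them was not checked.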

How the data were processed

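Liver RNA of 4 *Agpat3* WT and 4 KO mice was labeled with Cy3 and hybridized to 1 slide of one-color Agilent arrays. The authors deposited the spot intensities of Agilent Feature Extraction 10.7.1.1, of which the processed signal is background-corrected on a linear scale. They also deposited 1 table of log2 values, which matched the log2 processed signal up to a constant per array. Per array, 261.3 to 308.6 intensity units made the 75th percentile, over a median local background of 27 to 32. No sequencing depth exists for arrays, so that the number of mice and the signal over background limit the precision.

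Control and outlier spots were removed, the array's 75th percentile was subtracted from log2 signals, and spots of a probe were averaged. A probe was tested if flagged on all 4 arrays of a genotype. Genotypes were compared with lmFit and eBayes (limma 3.58.1, R 4.3.3, two-sided, Benjamini-Hochberg over 29069 probes), which was tested on simulated data, and single values by an exact permutation test of 70 assignments. Nothing in the labels says how the mice were related. One tested member lacked a value on 1 array and was fitted without it.

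Named probes were the 15 largest called changes in each direction, probes detected in 1 genotype only, the 3 intervals with the most members, the 5 highest, 3 dimmest and 3 most precise members, and the 3 brightest left out. The remaining called probes, those with 10 spots and the second probes of an interval were named after their values were seen. The members, the gene list and the marker lists were chosen with earlier results of these data known. Gene symbols came from a RefSeq table of GRCm38.p6 through accessions, and no coordinates of it were used. Probe sequences were not used here, and hybridization of other RNA to a probe was not tested. Alternatives were normexp (offset 50) on the median spot signal, the deposited log2 values, quantile normalization, median centring, other filters and thresholds, trended robust eBayes, leaving out each array, a replicate block and the methods' t-test. Plots were drawn with matplotlib.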

Additional observations from a re-analysis of the deposited data

Results flagged for a closer look

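In 12 of the 130 groups of 4 mice examined among the named interval probes, 1 mouse lay far from the other 3 by Dixon's ratio. In these 12 groups the gap to the nearest other mouse took more than 0.829 of the range. For independent and normally spread groups chance gives about 1 in 20. The 130 groups share their arrays and come from probes named in part by their values, so that rate cannot be set against the 12. On the log2 scale, WT 1 gave -6.52 for the F probe of chrX:93154123-93164481, where the other WT mice lay between -4.76 and -4.57. WT 2 gave -5.41 for the R probe of chr8:35652473-35703370, below -3.98 to -3.89 in the others. Both probes were flagged on no WT array.

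WT 1 stood high with -3.41 for the R probe of chr14:21029450-21049451 and with -2.355 for an R probe of chr2:167388900-167402475. It stood low with -3.31 for the F probe of chr8:122963590-122964126. WT 2 stood low with -0.67 for the R probe of chr1:78591605-78606083 and with -0.93 for an R probe of chr8:91569369-91594119. WT 4 stood low with -3.49 for the F probe of chr5:111565658-111566257. It stood high with 4.34 for an F probe of chr14:22267795-22319045 and with 10.07 for an R probe of chr1:193875525-193978800.

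Among the KO mice, KO 3 stood low with -4.76 for the R probe of chr12:110002978-110003360, against -4.10 to -3.99 in the others. KO 1 stood high with 0.66 for the F probe of chr1:183951156-183986156, against -0.01 to 0.07, and its value is nearest to the WT range.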

How the results depend on the processing

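Counts of called members moved with normexp, the filters and the threshold. From 15 higher and 24 lower they went to 5 and 5 with normexp, 5 and 17 with no filter on dim probes, and 6 and 16 for probes on all 8 arrays. Calls over all tested probes, in both directions, went from 484 of 29069 to 245 with normexp. They were 253 of 56605 with no filter and 333 of 27528 for probes on all 8 arrays. Members called were 3 and 2 at an adjusted p under 0.05, 6 and 2 at a fold change over 2, and 32 and 71 with no minimum fold change. In the same 3 settings 117, 160 and 1202 of all tested probes were called. The methods' t-test gave 24 and 41 unadjusted and 7 and 11 after Benjamini-Hochberg, against 929 and 269 over all tested probes. With 1 array left out, higher calls ran from 8 to 21 and lower calls from 11 to 26, and calls over all tested probes from 257 to 645. Quantile, median, deposited, trend and outlier settings stayed within 1.5 times. The median log2 fold change of the interval probes was 0.0203 with no filter, where that of all probes was 0.0256. Both medians were negative in every other setting run.

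The mice share a replicate number across genotypes, which is their slide column. Deviations of same-numbered mice correlated by 0.331, -0.109, 0.103 and 0.319, and 3 of 4 WT mice correlated best with their own number, a hint from the data. Because 1 pair was not above 0.1, the mice were not taken as pairs. A fit with the replicate block called 592 of all tested probes. Among members it called 18 higher and 28 lower, of which 14 and 24 were among the called members above. The call lost was that of the R probe of chr15:102926581-102932542 (limma adjusted p = 0.231).

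Of 64 named log2 fold changes, 59 kept their sign in every setting. The F probe A_30_P01027695 was -0.0086 after median centring and the R probe A_30_P01022075 was 0.015 after quantile normalization. With 1 array left out, A_30_P01024751 ran from -0.13 to 0.00064, A_30_P01026000 from -0.11 to 0.11 (0.05 without KO 1) and A_30_P01027489 from -0.19 to 0.0215. None of these 5 was called.

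Dim members are limited by background: the median standard error was 0.214 for members not on all 8 arrays and 0.126 for the rest.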
